A study of Mus musculus with 18 samples.

Results

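The 36 genes described here had higher mRNA levels in confined than in nonconfined cPLA_2_ KO dendritic cells (DCs), without such a difference in cPLA_2_ WT DCs. They were chosen by measured values, from 12036 genes with a symbol and a mean of at least 50 normalized counts in any of 6 conditions. A gene was selected if the difference of its group means of log2(normalized count + 1) between confined and nonconfined cells was above 0.8 in cPLA_2_ KO and below 0.2 in cPLA_2_ WT DCs. These differences, the difference between them and the comparisons of genotypes in the same 12 libraries therefore describe the choice and were not tested for these genes. The deposited table holds 62197 entries, of which 25177 carry a symbol.

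Polyadenylated RNA of mouse bone marrow-derived DCs, grown for 10 days with granulocyte-macrophage colony-stimulating factor, was sequenced in 18 bulk libraries. In the cPLA_2_ KO mice the gene *Pla2g4a*, flanked by loxP sites, is deleted by Cre under the *Itgax* (CD11c) promoter, so that the deletion is limited to cells that use this promoter, and cPLA_2_ WT DCs served as controls. Nonconfined cPLA_2_ WT and cPLA_2_ KO cells were collected at the end of the culture without treatment, confined cPLA_2_ WT and cPLA_2_ KO cells after 4 h at a height of 3 µm, and cPLA_2_ WT and cPLA_2_ KO cells treated with lipopolysaccharide (LPS) on the day after 30 min in 100 ng ml-1 LPS. Each of the 6 conditions had 3 libraries, with between 33027230 and 61300021 reads on genes per library. The labels give no age of the mice. The figure legends of the study call the samples biological replicates, but the labels do not say whether those of a condition came from separate mice or cultures, and p-values measure only the spread between these libraries. A read corresponded to between 0.762 and 1.23 normalized counts, depending on the library, so that levels near 50 rest on few reads.

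Cytosolic phospholipase A2 (cPLA_2_), the product of *Pla2g4a*, frees arachidonic acid from membrane phospholipids, the precursor of prostaglandins and leukotrienes. It is recruited to the inner nuclear membrane when the nuclear envelope is stretched, as happens in cells squeezed through narrow spaces. DCs patrol tissues by such movements and use the chemokine receptor CCR7 to reach lymph nodes.

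The targeted gene was checked first. *Pla2g4a* was present at 697, 686 and 770.4 normalized counts in the nonconfined cPLA_2_ WT libraries and at 548, 542 and 533 in the nonconfined cPLA_2_ KO libraries. The values were 1369, 1430.3 and 1321 in confined cPLA_2_ WT and 923, 871 and 919.5 in confined cPLA_2_ KO libraries. In both treatments every cPLA_2_ KO library was below every cPLA_2_ WT library, and the mRNA was reduced but not absent. The libraries labelled LPS cPLA_2_ WT held 1005, 969 and 967 and those labelled LPS cPLA_2_ KO 1065, 1032 and 1028 normalized counts, so that *Pla2g4a* was not lower in the latter. The Y-linked RNA helicase gene *Ddx3y* was present at 3.05, 0 and 1.97 normalized counts in nonconfined cPLA_2_ WT and at 949, 981 and 874 in nonconfined cPLA_2_ KO libraries. In confined cells the values were 0, 1.72 and 2.37 in cPLA_2_ WT and 1036, 920.2 and 948 in cPLA_2_ KO libraries. In these 12 libraries Y-linked mRNA was thus almost absent from cPLA_2_ WT and present in cPLA_2_ KO cells. Genotype, donor and donor sex therefore cannot be told apart in them. The libraries labelled LPS cPLA_2_ WT replicates 1, 2 and 3 held 1271, 0 and 662 *Ddx3y* counts, and those labelled LPS cPLA_2_ KO held 2.12, 1476 and 783. *Eif2s3y*, another Y-linked gene, was likewise near 0 in the libraries labelled LPS cPLA_2_ WT replicate 2 and LPS cPLA_2_ KO replicate 1 and at 447.7 or more in the other LPS libraries. The LPS libraries thus did not follow the split by genotype of the other libraries, and their genotype is given below as labelled. *Ccr7* was present at 16166, 15734 and 15753 counts in nonconfined cPLA_2_ WT, 33397, 32199 and 33237 in confined cPLA_2_ WT and 8907, 8891 and 8957 in confined cPLA_2_ KO libraries. The confined groups therefore lay on opposite sides of the nonconfined level of this receptor gene.

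**Figure D1:**
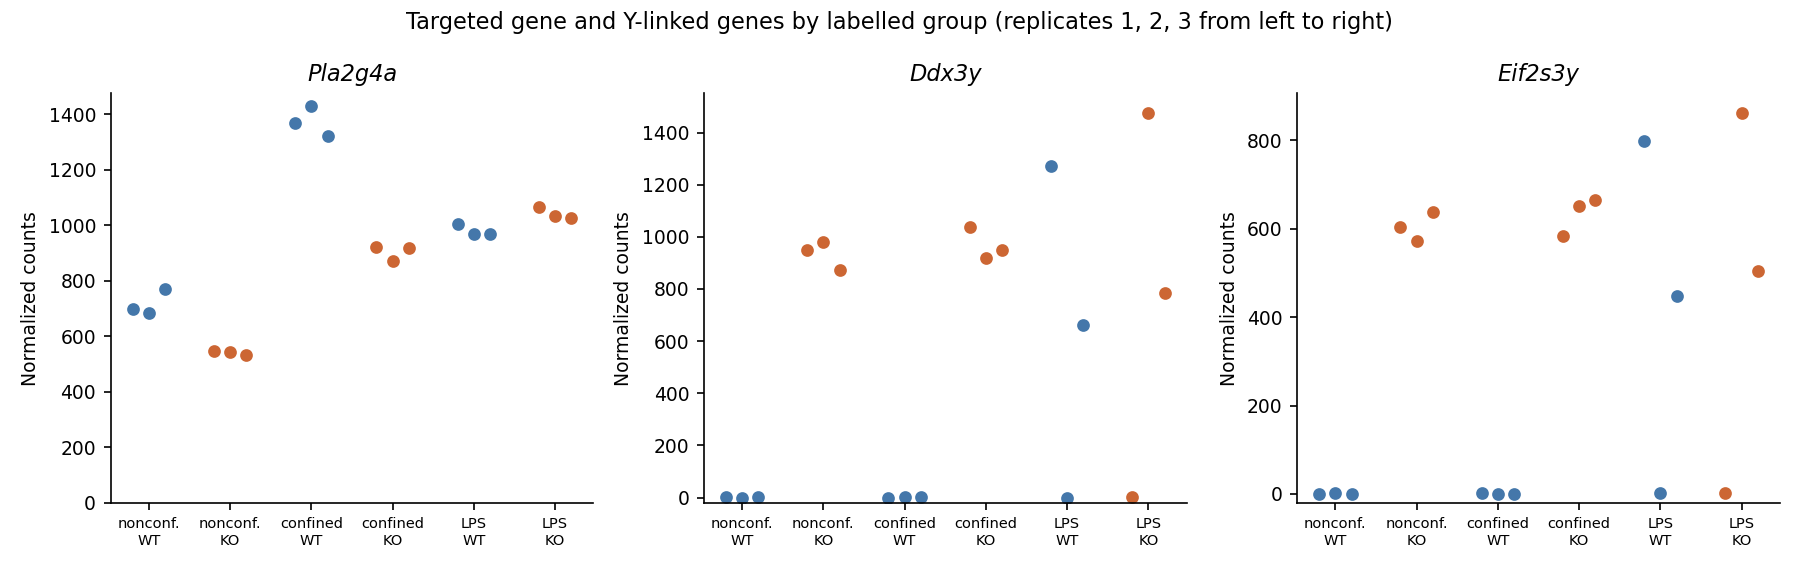
Normalized counts (linear y axes) of *Pla2g4a* and of the Y-linked genes *Ddx3y* and *Eif2s3y* in the 6 labelled conditions (x axis), with a point for each of 3 libraries per condition, blue for cPLA_2_ WT and orange for cPLA_2_ KO. *Ddx3y* and *Eif2s3y* separate the genotypes in nonconfined and confined cells, whereas in the LPS groups a library of each label lies near 0.

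The 36 genes were few. Of the 12036 genes considered, 802 had a difference above 0.8 in cPLA_2_ KO DCs, and the chosen genes were 4.49% of these. A difference above 0.8 in both genotypes was found for 644 genes. The mirrored rule, a difference above 0.8 in cPLA_2_ WT and below 0.2 in cPLA_2_ KO DCs, chose 416 genes. The median difference in cPLA_2_ KO DCs was 1.00 over the 36 genes, from 0.81 to 5.03, compared with -0.03 over all genes considered. In cPLA_2_ WT DCs it was -0.06, from -3.55 to 0.20, compared with -0.04. In 24 genes the cPLA_2_ WT value lay between -0.2 and 0.2, and in 12 genes it was below -0.2. The counts of nonoverlapping libraries, which come from the values that chose the genes, were as follows. Every confined cPLA_2_ KO library was above every nonconfined cPLA_2_ KO library for 31 genes, an order that 29.4% of all genes considered showed. Every confined cPLA_2_ KO library was above every confined cPLA_2_ WT library for 28 genes, against 31.7% of all genes. Confined cPLA_2_ WT libraries were all above the nonconfined cPLA_2_ WT libraries for *Lonrf3* and *Tns1* (36.7% of all genes) and all below them for 4 genes, among them *Coro6*, *Lpin1* and the entry *2210418O10Rik // Gm14296* (40.9% of all genes). Of the 6 conditions, confined cPLA_2_ KO cells had the highest mean for 30 genes, which the rule favours, and the share over all genes considered was not counted. The others were highest in nonconfined cPLA_2_ WT cells (among them *Coro6* and *2210418O10Rik // Gm14296*) or in the libraries labelled LPS cPLA_2_ WT (*Mga*, *Ccser1* and *G530011O06Rik*).

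**Figure D2:**
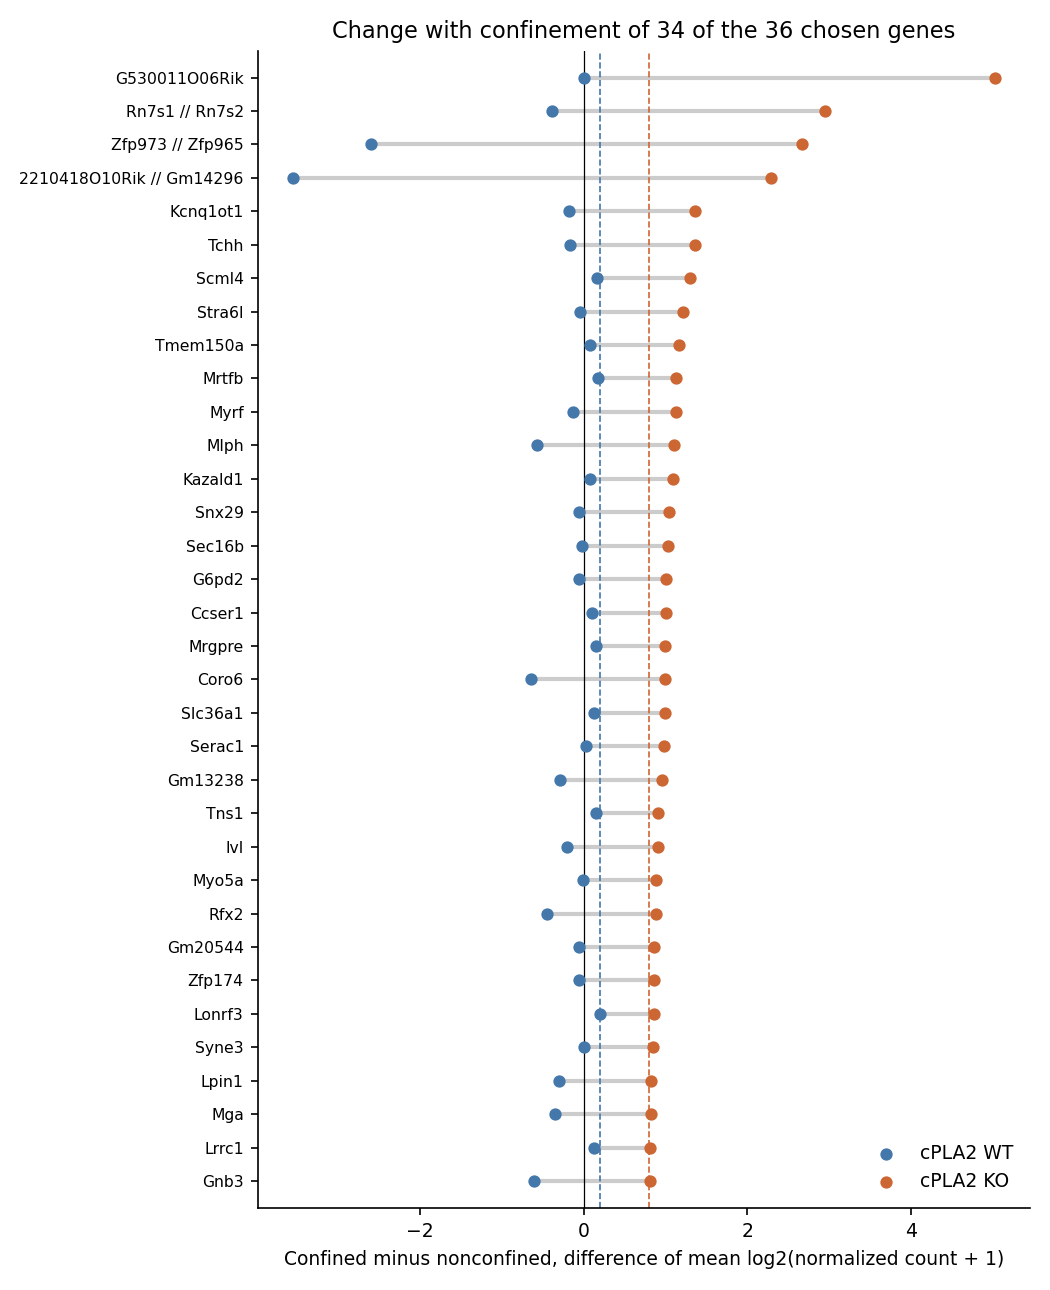
Difference between confined and nonconfined cells in group means of log2(normalized count + 1) (x axis) for 34 of the 36 chosen genes (y axis), with blue points for cPLA_2_ WT and orange points for cPLA_2_ KO DCs and 3 libraries per group. Dashed lines mark the thresholds of 0.8 in cPLA_2_ KO and 0.2 in cPLA_2_ WT DCs that chose the genes, and the upper 4 entries, with differences of 2.29 to 5.03 in cPLA_2_ KO DCs, are multi-copy or Y-linked sequences listed at 0 in some libraries.

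The choice rested on thresholds that some genes passed narrowly. *Gnb3* (0.81) and *Lrrc1* (0.82) were just above the minimum in cPLA_2_ KO DCs, and *Tram2* (0.80 after rounding, 0.7997 before) and *Rreb1* (0.78) were just below it. *Lonrf3* (0.198) and *Mrtfb* (0.177) were just under the maximum in cPLA_2_ WT DCs, and *Tns3* (0.204) and *Per2* (0.208) were just over it. For the level, the highest group mean was 59.1 in *Gnb3* and 60.0 in *Sec16b*, inside the minimum of 50, whereas *Kif21a* (43.4) and *Gm19378* (41.6) were outside. With each of the 12 nonconfined and confined libraries left out in turn, the rule chose between 34 and 45 genes, and 13 of the 36 genes were chosen each time. Among these were *G530011O06Rik*, *Tchh*, *Stra6l*, *Myrf*, *Mlph*, *Kazald1*, *Snx29*, *Sec16b*, *Slc36a1*, *Serac1*, *Gm13238* and *Tns1*. Fewest of the 36 genes, 29, were chosen without nonconfined cPLA_2_ KO replicate 2.

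The genes are described in an order by the roles of their products, which was set after the values were seen, and no shared role was tested. *Syne3* (GSMG0012775, chr12:104896192-104976070 of GRCm39, minus strand, 17 exons) encodes nesprin-3, a protein of the outer nuclear membrane that connects the nucleus to intermediate filaments. It was present at 827, 747 and 747 normalized counts in nonconfined and 766, 768 and 794 in confined cPLA_2_ WT libraries. In cPLA_2_ KO libraries the values were 513, 798 and 664 in nonconfined and 1256, 1149.5 and 1095 in confined cells. The confined cPLA_2_ KO libraries lay above the other 9 nonconfined and confined libraries, among which nonconfined cPLA_2_ KO replicates 1 and 3 were the lowest. The log2 difference was 0.85 in cPLA_2_ KO and 0.01 in cPLA_2_ WT DCs. *Tns1* (GSMG0001924, chr1:73949391-74163707, minus strand, 33 exons) encodes tensin 1, which binds actin and integrin tails at adhesion sites. Its values were 605, 624 and 606 in nonconfined and 643, 688 and 704 in confined cPLA_2_ WT libraries. In cPLA_2_ KO libraries they were 567, 675 and 562 in nonconfined and 1133, 1146 and 1095 in confined cells. The nonconfined groups overlapped and the confined cPLA_2_ KO libraries stood apart, with log2 differences of 0.91 in cPLA_2_ KO and 0.15 in cPLA_2_ WT DCs.

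*Mrtfb* (GSMG0020538, chr16:13074345-13235393, plus strand, 17 exons) encodes a coactivator of serum response factor that is held in the cytoplasm by monomeric actin. It was present at 737, 668 and 639.7 counts in nonconfined and 693, 812 and 809 in confined cPLA_2_ WT libraries. The corresponding cPLA_2_ KO values were 399.6, 671 and 492 and 1133, 1068 and 1143. The nonconfined cPLA_2_ KO libraries were spread, with replicate 2 inside the cPLA_2_ WT range and replicates 1 and 3 under it, and all confined cPLA_2_ KO libraries were above 1000 counts. *Myo5a* (GSMG0057129, chr9:74978295-75130970, plus strand, 40 exons) encodes myosin Va, a motor that carries vesicles along actin. Its values were 882, 941 and 924 in nonconfined and 864, 942 and 913 in confined cPLA_2_ WT libraries. The values of cPLA_2_ KO libraries were 537, 778 and 627 in nonconfined and 1199, 1110.1 and 1248 in confined cells. The cPLA_2_ WT groups overlapped, the nonconfined cPLA_2_ KO libraries lay below them and the confined cPLA_2_ KO libraries above. *Mlph* encodes melanophilin, the adaptor that joins RAB27A on vesicles to myosin Va. It was low in all cPLA_2_ WT libraries, at 12.2, 21.3 and 15.7 nonconfined and 4.83, 18.9 and 11.8 confined. The cPLA_2_ KO values were 32.9, 27.9 and 32.0 and 73.4, 59.7 and 71.1, above every cPLA_2_ WT library in both treatments. *Coro6*, of the coronin family of actin-binding proteins, was present at 86.1, 54.6 and 71.7 in nonconfined and 43.5, 40.3 and 49.7 in confined cPLA_2_ WT libraries. In cPLA_2_ KO libraries it was at 32.1, 19.5 and 29.1 in nonconfined and 45.3, 50.1 and 67.4 in confined cells. The genotypes thus moved in opposite directions, and the confined groups overlapped.

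**Figure D3:**
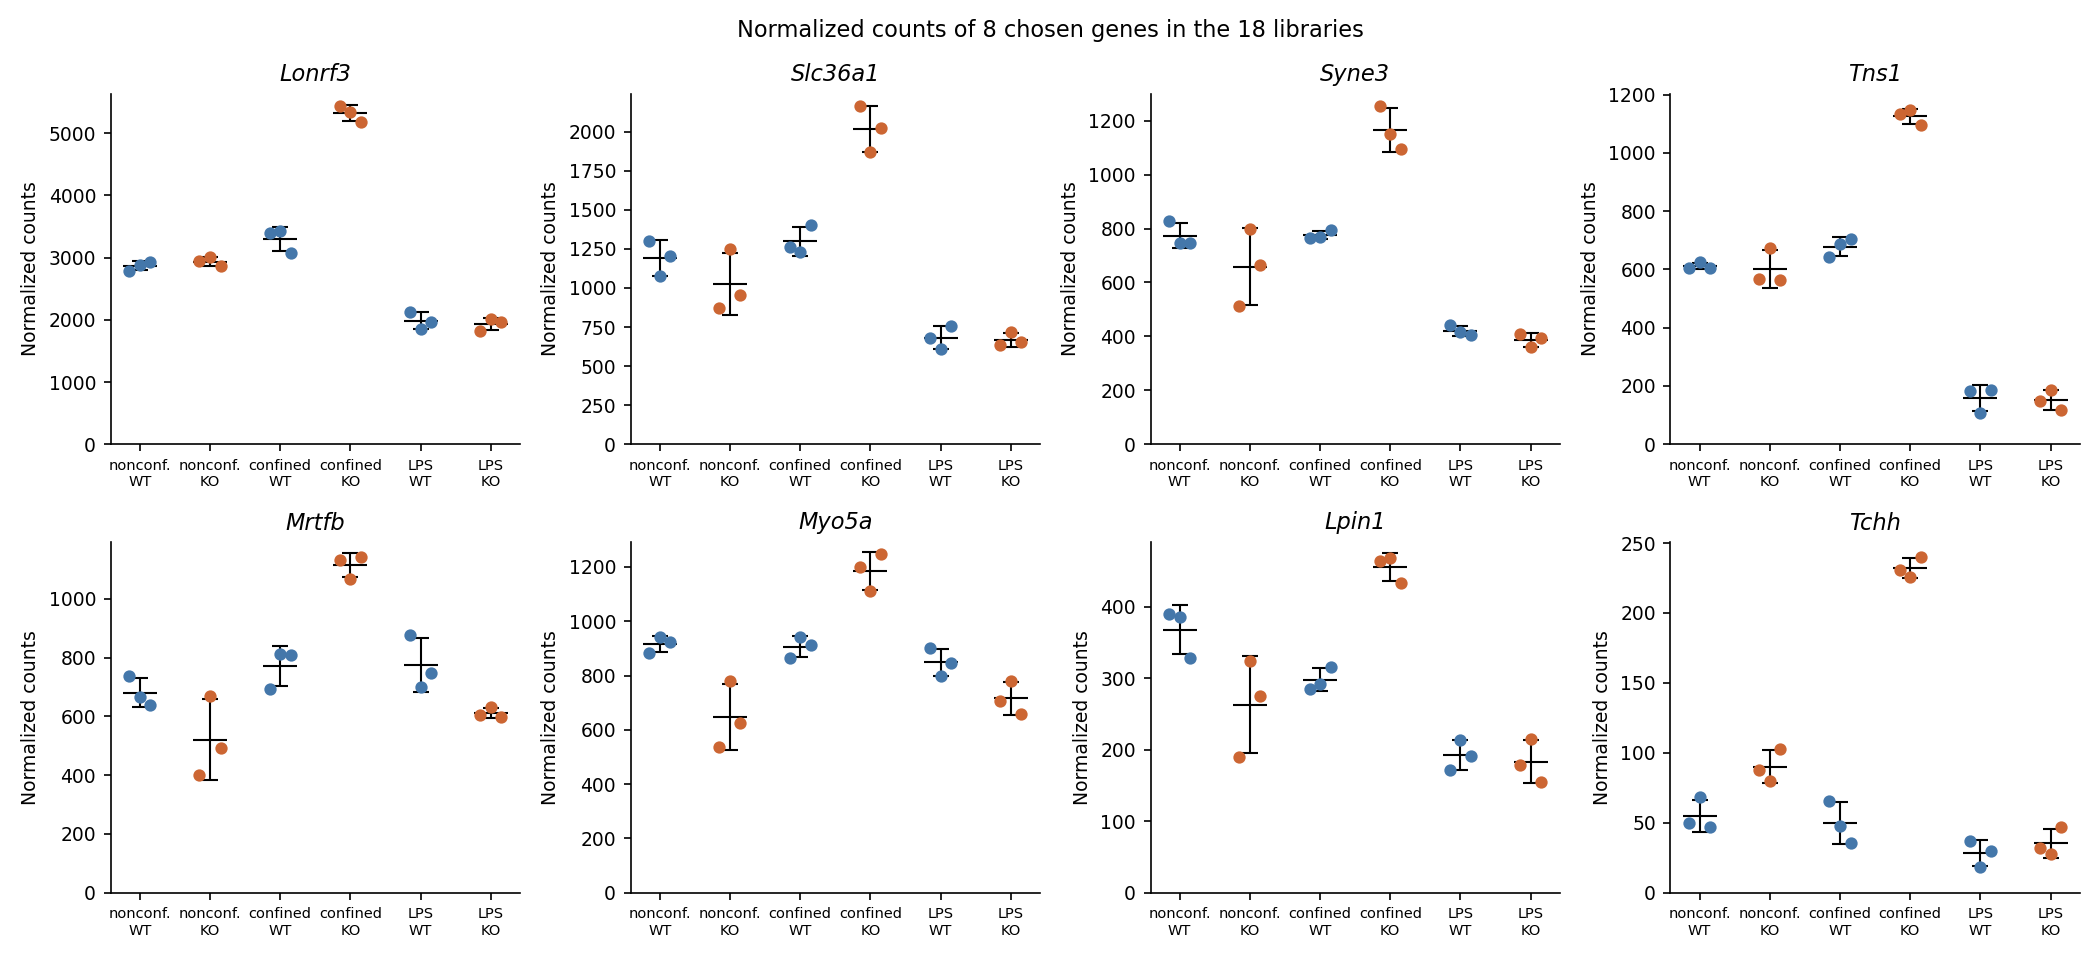
Normalized counts (linear y axes from 0) of 8 chosen genes in the 6 conditions (x axis), with a point for each of 3 libraries, in the order of their replicate numbers, and black lines for the mean ± SD (blue for cPLA_2_ WT, orange for cPLA_2_ KO). Confined cPLA_2_ KO libraries are the highest in each panel, for example above 5000 counts for *Lonrf3*, whereas confined cPLA_2_ WT libraries stay near the nonconfined ones or, for *Lpin1*, below them.

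Compared per length of the annotated exons, and among entries with a single symbol and a matched length, the highest levels in confined cPLA_2_ KO DCs were those of *Lonrf3* (mean 1380.2 normalized counts per kb), *Slc36a1* (357), *Syne3* (207), *Gm13238* (90.0), *Mrgpre* (86.2) and *Myo5a* (78.6). Of the 4 entries left out of this order, *Rn7s1 // Rn7s2*, with exons of 300 bases, would rank above *Slc36a1* if its reads were assigned to a single copy. *Lonrf3* (GSMG0060348, chrX:35592004-35630509, plus strand, 11 exons) encodes a protein with a RING finger and a domain named after the Lon protease. It was present at 2789, 2879.6 and 2936 counts in nonconfined and 3389, 3419.7 and 3070.2 in confined cPLA_2_ WT libraries. The cPLA_2_ KO libraries held 2937, 3013 and 2856 in nonconfined and 5443, 5342 and 5182 in confined cells. The nonconfined groups overlapped, confined cPLA_2_ WT libraries were slightly above them, and confined cPLA_2_ KO libraries were far above all others. *Slc36a1* (GSMG0007404, chr11:55095166-55127158, plus strand, 11 exons) encodes a proton-coupled transporter of small amino acids that resides in lysosomes and the plasma membrane. Its values were 1301, 1074 and 1204 in nonconfined and 1260.1, 1231 and 1402 in confined cPLA_2_ WT libraries. The values of cPLA_2_ KO libraries were 871, 1246 and 958 in nonconfined and 2166, 1870.3 and 2020.4 in confined cells, a log2 difference of 0.99 compared with 0.12 in cPLA_2_ WT DCs. Nonconfined cPLA_2_ KO replicate 2 lay within the cPLA_2_ WT range and the others below it.

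*Lpin1* encodes lipin 1, which makes diacylglycerol from phosphatidate and also acts in the nucleus. It was present at 390.1, 385 and 328 counts in nonconfined and 285, 292 and 316 in confined cPLA_2_ WT libraries. The cPLA_2_ KO values were 189.6, 324 and 275 in nonconfined and 464, 468 and 433 in confined cells. All confined cPLA_2_ WT libraries were below and all confined cPLA_2_ KO libraries above the nonconfined libraries of their genotype. *Serac1*, needed for phosphatidylglycerol remodelling, was at 126, 171 and 104 in nonconfined and 265, 234 and 281 in confined cPLA_2_ KO libraries, with a log2 difference of 0.03 in cPLA_2_ WT DCs. *Sec16b*, which organizes exit sites of the endoplasmic reticulum, and *Snx29*, a sorting nexin gene, had differences of 1.03 and 1.04 in cPLA_2_ KO DCs. *Stra6l*, a retinol-binding protein receptor gene, had a difference of 1.21, from 64.2, 61.4 and 38.8 in nonconfined to 110.1, 125 and 143 counts in confined cPLA_2_ KO libraries. *Tmem150a*, a regulator of phosphoinositide synthesis at the plasma membrane, had a difference of 1.16 at levels of at most 64.7 counts per library in nonconfined and confined cells. None of these genes had a difference above 0.1 in cPLA_2_ WT DCs.

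*Mrgpre* encodes an orphan G protein-coupled receptor. It was present at 158, 169 and 187 counts in nonconfined and 373, 319.9 and 335 in confined cPLA_2_ KO libraries. In cPLA_2_ WT libraries it was present at 216, 176 and 211 and 229, 210.1 and 226. The cPLA_2_ WT groups overlapped and the confined cPLA_2_ KO libraries were the highest. *Gnb3*, a G protein beta subunit gene, was at 48.6, 23.3 and 32.0 in nonconfined and 58.3, 54.4 and 64.7 in confined cPLA_2_ KO libraries, close to the minimum level.

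*Tchh* and *Ivl* encode trichohyalin and involucrin, proteins of hair follicles and of the cornified envelope of keratinocytes, and both lie in the epidermal gene complex of chromosome 3. *Tchh* was present at 49.5, 68.2 and 47.2 counts in nonconfined and 65.7, 48.0 and 35.5 in confined cPLA_2_ WT libraries. In cPLA_2_ KO libraries the values were 87.8, 80.1 and 103 in nonconfined and 231, 226 and 239.7 in confined cells. *Ivl* was present at 15.2, 13.6 and 22.6 and 16.4, 6.86 and 26.1 in nonconfined and confined cPLA_2_ WT libraries, and at 58.0, 51.2 and 40.8 and 111, 73.6 and 100.2 in the cPLA_2_ KO libraries. Both genes, like *Mlph*, were already higher in every nonconfined cPLA_2_ KO library than in every nonconfined cPLA_2_ WT library. Their neighbours *Rptn* and *Lor* were listed at 0 in all libraries, and *Tchhl1* and *Sprr1a* had group means of at most 1.93 counts. By contrast *S100a10* and *S100a11*, also on chromosome 3, were abundant, with 16196 ± 694 and 25003 ± 372 counts in confined cPLA_2_ KO DCs (SD, n = 3).

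*Scml4*, of the Polycomb group, was at 53.3, 27.9 and 46.6 counts in nonconfined and 77.7, 109 and 128 in confined cPLA_2_ KO libraries, a log2 difference of 1.30. *Myrf*, a membrane-bound transcription factor, was at 196, 254 and 203 in nonconfined and 502, 449 and 468 in confined cPLA_2_ KO libraries. In cPLA_2_ WT libraries *Myrf* was at 408, 341 and 354 and 386, 308 and 314, so that nonconfined cPLA_2_ KO libraries were the lowest. *Mga*, a partner of MAX, had values of 179, 505 and 320.3 in nonconfined and 522, 609.9 and 505 in confined cPLA_2_ KO libraries. The spread of the nonconfined libraries was wide, and replicate 2 was within the confined range. *Rfx2* and *Zfp174*, which encode DNA-binding proteins, had differences of 0.88 and 0.86 in cPLA_2_ KO and -0.45 and -0.06 in cPLA_2_ WT DCs. *Lrrc1*, a scaffold protein gene, and *Kazald1*, which encodes a secreted protein with a Kazal domain, had differences of 0.82 and 1.09 in cPLA_2_ KO DCs. *Ccser1* passed the minimum level through the LPS libraries alone, with 0, 0 and 4.85 counts in nonconfined and 2.16, 4.27 and 1.82 in confined cPLA_2_ KO libraries, so that its difference of 1.00 rests on few reads.

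Some members were noncoding or have near-identical copies. *Kcnq1ot1* encodes a long noncoding RNA transcribed antisense to *Kcnq1* in an imprinted cluster of chromosome 7. It was at 105, 87.5 and 93.2 in nonconfined and 129, 456 and 253 in confined cPLA_2_ KO libraries. The cPLA_2_ WT values were 114, 229 and 161 and 61.8, 254 and 185. In both genotypes confined replicate 1 was the lowest and replicate 2 the highest, and the groups of confined cells overlapped. *Kcnq1* itself had group means of at most 3.29 counts. *Gm20544*, another long noncoding RNA gene, was at 134, 116 and 151 in nonconfined and 273, 239.9 and 221 in confined cPLA_2_ KO libraries and had a difference of -0.05 in cPLA_2_ WT DCs. *Gm13238*, annotated as a processed pseudogene, had differences of 0.96 and -0.28. *G6pd2* is an intronless relative of *G6pdx*, the glucose-6-phosphate dehydrogenase gene, and its 170.5, 115 and 106 counts in confined cPLA_2_ KO libraries may include reads of *G6pdx*, which had a mean of 13613 ± 721 (SD, n = 3). The entry *Rn7s1 // Rn7s2*, of the RNA of the signal recognition particle, was listed at 304, 0 and 316 in nonconfined and 251, 508 and 353 in confined cPLA_2_ KO libraries. *Zfp973 // Zfp965*, a pair of zinc finger genes on chromosome 2, was listed at 102, 179 and 0 and 163, 156 and 187. In these entries a 0 stood beside values above 100 within the same group. *2210418O10Rik // Gm14296*, also on chromosome 2, was listed at 359.6, 0 and 284 in nonconfined and 281, 191 and 221 in confined cPLA_2_ KO libraries. Nonconfined replicates 1 and 3 were above every confined library, the difference of 2.29 comes from the 0 in replicate 2, and the entry was not chosen without that library. *G530011O06Rik*, on the Y chromosome, was listed at 41.5, 0 and 0 in nonconfined and 106, 124 and 110.3 in confined cPLA_2_ KO libraries and at 0 in the cPLA_2_ WT libraries of both treatments. These cPLA_2_ WT libraries had almost no reads of the Y-linked *Ddx3y* and *Eif2s3y* either, so that for a Y-linked entry no change could be measured in them. Without the 5 entries listed at 0 in any nonconfined or confined library, which include *Ccser1*, 31 genes remained.

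Many of the chosen genes started from a lower level in nonconfined cPLA_2_ KO than in nonconfined cPLA_2_ WT DCs. The mean log2 level was lower in cPLA_2_ KO cells for 27 and higher for 9 of the 36 genes, and the median difference was -0.25, compared with 0.00 over all genes considered. It was below -0.2 for 23 genes. Every nonconfined cPLA_2_ KO library was below every nonconfined cPLA_2_ WT library for 11 genes (16.1% of all genes considered), among them *Coro6*, *Kcnq1ot1*, *Lpin1*, *Mga*, *Myo5a*, *Myrf*, *Sec16b*, *Stra6l* and *Zfp174*. The reverse order was found for *Ivl*, *Mlph* and *Tchh* (17.3% of all genes). In confined cells the median difference between the genotypes was 0.74, compared with 0.03 over all genes considered, and 35 of the 36 genes had a higher mean log2 level in cPLA_2_ KO cells, *Ccser1* being the exception. The nonconfined and confined libraries entered both these comparisons and the rule. A low nonconfined or a high confined cPLA_2_ KO level raises the chance of being chosen, so these values are descriptions. For the counts by mean log2 level, the shares over all genes considered were not counted.

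The LPS libraries took no part in the thresholds on confinement, so the comparison of the libraries labelled LPS cPLA_2_ KO and LPS cPLA_2_ WT could be tested, although *Ccser1* passed the minimum level through them. All 36 genes had a minimum of 10 normalized counts in 3 or more libraries, and 17875 such genes were tested. With limma and Benjamini-Hochberg adjustment, 0 of the 36 genes were called higher and 0 lower at an adjusted p under 0.05, and of all genes tested 0.0% were called in either direction. edgeR and DESeq2 on the recovered reads also called 0 genes. At an unadjusted p under 0.05 there were 2 of the 36 genes and 890 of all genes (4.98%). With single LPS libraries left out, the former count ranged from 0 without LPS cPLA_2_ WT replicate 1 to 7 without LPS cPLA_2_ KO replicate 2, and the latter from 786 without LPS cPLA_2_ WT replicate 3 to 1441 without LPS cPLA_2_ KO replicate 1. With all libraries, the 2 genes were *Myo5a* and *Mrtfb*. *Myo5a* was at 899.7, 800.0 and 848 counts in the libraries labelled LPS cPLA_2_ WT and 707, 780.3 and 659 in those labelled LPS cPLA_2_ KO, a log2 difference of -0.25 (limma, SE 0.0984, adjusted p = 0.87). *Mrtfb* was at 876, 699 and 747 and 604, 632 and 598, a log2 difference of -0.33 (limma, SE 0.127, adjusted p = 0.862). In both genes, and in *Mga*, every library labelled LPS cPLA_2_ KO was below every library labelled LPS cPLA_2_ WT (4.83% of all genes considered), and *Gnb3* showed the reverse order (4.36%). The median log2 difference over the 36 genes was -0.11, compared with -0.00 over all genes considered. Each label held unlike libraries. The summed eosinophil markers were 40386, 23734 and 31977 in the libraries labelled LPS cPLA_2_ WT and 23539, 39969 and 32594 in those labelled LPS cPLA_2_ KO. *Acot1*, which parted the genotypes in nonconfined and confined cells, was at 54.9, 0.915 and 33.6 and 0, 49.2 and 40.7 counts. Like *Ddx3y*, these values ranged alike under both labels, so the count of 0 says little about a difference between genotypes. Without the library labelled LPS cPLA_2_ WT replicate 2, 3 of all genes tested were called, and without LPS cPLA_2_ KO replicate 2, 1 gene was called. None of these was among the 36 genes. Labels of these libraries were not changed for any comparison.

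Compared with nonconfined cells, most of the chosen genes were at lower levels after LPS. This comparison shares the nonconfined libraries with the rule and was not tested for these genes. The median log2 difference between LPS and nonconfined cells was -0.73 in the libraries labelled cPLA_2_ WT and -0.54 in those labelled cPLA_2_ KO, compared with 0.04 and 0.02 over all genes considered. Every library labelled LPS cPLA_2_ WT was below every nonconfined cPLA_2_ WT library for 23 of the 36 genes (38.5% of all genes considered) and above for *Ccser1* and *G530011O06Rik* (42.4%). Every library labelled LPS cPLA_2_ KO was below every nonconfined cPLA_2_ KO library for 14 genes (37.2%) and above for *Ccser1*, *G6pd2* and *Sec16b* (40.7%). The tensin gene *Tns1* was at 183, 108 and 187 counts in the libraries labelled LPS cPLA_2_ WT and at 148, 188 and 118 in those labelled LPS cPLA_2_ KO. *Mrgpre* was at 54.9, 42.1 and 59.7 and 65.8, 57.2 and 61.7, and *Kazald1* at 18.6, 3.66 and 12.1 and 3.18, 13.7 and 17.3. For *Tns1* and *Mrgpre* all LPS libraries were below all nonconfined and confined libraries. *Lonrf3* was at 2125, 1857 and 1967 and 1819, 2006 and 1969, again below all other libraries. *Mrtfb*, *Myo5a*, *Serac1* and *Mga* did not show such a drop. *Ccser1*, at 81.6, 49.4 and 54.1 and 43.5, 64.1 and 59.2 counts, met the minimum level through the LPS libraries alone, so that its place above the nonconfined libraries follows from the choice.

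Relatives of the chosen genes, picked after the values of the chosen genes were seen, were tested with limma for the change with confinement in each genotype. Of 67 relatives from 22 families, 51 passed the filter. In cPLA_2_ KO DCs 15 were called higher and 17 lower, and in cPLA_2_ WT DCs 15 were higher and 21 lower. Those named are examples picked after their values were seen. Of all 17875 genes tested, 22.8% were called higher and 23.4% lower in cPLA_2_ KO DCs, and 28.2% were higher and 28.4% lower in cPLA_2_ WT DCs. After scaling to equal library totals, the median change of all genes tested moved to -0.02 in cPLA_2_ KO and -0.23 in cPLA_2_ WT DCs, and in cPLA_2_ WT DCs 3578 genes were called higher and 7380 lower. The tensin gene *Tns3* rose in cPLA_2_ KO DCs from 2981 ± 224 to 5527 ± 128 normalized counts (SD, n = 3), a change of 0.89 (log2, limma, SE 0.0607, adjusted p = 1.12e-10). In cPLA_2_ WT DCs the change of *Tns3* was 0.20 (log2, limma, SE 0.0607, adjusted p = 0.00684), and -0.02 after scaling to equal library totals. *Tns4* fell in both genotypes, by 0.56 in cPLA_2_ KO and by 0.43 in cPLA_2_ WT DCs on the log2 scale (limma, adjusted p = 0.0113 and 0.0375), and the latter change was -0.66 after scaling to equal library totals. Of the nesprin genes and their partners in the inner nuclear membrane, *Syne2* rose in cPLA_2_ KO DCs by 0.81 and in cPLA_2_ WT DCs by 1.57 (limma, adjusted p = 0.00356 and 1.75e-06). *Sun2* fell in both, by 0.18 in cPLA_2_ KO and by 0.55 in cPLA_2_ WT DCs (limma, adjusted p = 0.0128 and 2.69e-08).

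*Mrtfa*, the other coactivator of its kind in the table with reads, fell in cPLA_2_ KO DCs from 4369.6 ± 295 to 3422 ± 255 counts (SD, n = 3), a change of -0.35 (log2, limma, SE 0.0636, adjusted p = 0.000106), and in cPLA_2_ WT DCs the change was -0.26 (log2, limma, SE 0.0636, adjusted p = 0.00126). After scaling to equal library totals, the changes of *Mrtfa* were -0.39 in cPLA_2_ KO and -0.49 in cPLA_2_ WT DCs. *Rab27a*, whose product recruits melanophilin and myosin Va, fell in both genotypes, by 0.78 in cPLA_2_ KO and by 0.32 in cPLA_2_ WT DCs (limma, adjusted p = 1.15e-10 and 2.79e-05). The latter change was -0.54 after scaling to equal library totals. Among transporters related to *Slc36a1*, *Slc36a4* rose by 1.14 in cPLA_2_ KO and by 0.84 in cPLA_2_ WT DCs (limma, adjusted p = 1.44e-06 and 4.06e-05). *Slc36a2* rose in cPLA_2_ KO DCs from 2.97 ± 1.97 to 41.9 ± 4.64 counts (SD, n = 3), and its change was 3.57 (log2, limma, SE 0.799, adjusted p = 0.000941) there and 1.13 (log2, limma, SE 0.799, adjusted p = 0.242) in cPLA_2_ WT DCs. *Slc36a3* had a change of -0.68 (log2, limma, SE 0.279, adjusted p = 0.0533) in cPLA_2_ KO and -0.86 (log2, limma, SE 0.279, adjusted p = 0.0126) in cPLA_2_ WT DCs. The lipin gene *Lpin2* rose by 1.13 in cPLA_2_ KO and by 1.25 in cPLA_2_ WT DCs (limma, adjusted p = 9.84e-13 and 4.68e-14). Of the coronin genes, *Coro1a*, the main coronin of leukocytes, fell by 0.36 in cPLA_2_ KO and by 0.35 in cPLA_2_ WT DCs (limma, adjusted p = 6.11e-06 and 4.8e-06). *Coro1c* rose by 0.25 in cPLA_2_ KO DCs and fell by 0.20 in cPLA_2_ WT DCs (limma, adjusted p = 0.000157 and 0.00077). After scaling to equal library totals, the changes in cPLA_2_ WT DCs were -0.58 for *Coro1a* and -0.43 for *Coro1c*. In the MAX network of *Mga*, *Mxd1* rose by 1.57 in cPLA_2_ WT DCs (limma, adjusted p = 1.07e-18) and fell by 0.10 in cPLA_2_ KO DCs (adjusted p = 0.0421). *Gnb4* fell by 1.17 in cPLA_2_ KO and by 0.20 in cPLA_2_ WT DCs (limma, adjusted p = 1.29e-12 and 0.00693), and the latter change was -0.43 after scaling to equal library totals. The differences between genotypes were not tested for these relatives.

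The 36 genes were compared with 32 lists of genes by function or cell type, and *Kcnq1ot1* in the list of long noncoding RNAs was the sole overlap. The share of all genes considered that is on any list was not counted. For the lists nearest to the roles of the chosen genes, the other genes of each list were counted by limma (adjusted p under 0.05), beside medians of 0.01 in cPLA_2_ KO and -0.01 in cPLA_2_ WT DCs over all genes tested. Of 20 genes of lysosomes and autophagy, 17 rose and 1 fell in cPLA_2_ KO DCs (median log2 fold change 0.39), and 15 rose and 2 fell in cPLA_2_ WT DCs (median 0.34). After scaling to equal library totals, 6 fell in cPLA_2_ WT DCs. *Atp6v0d2*, a subunit of the lysosomal proton pump, rose by 1.13 in cPLA_2_ KO and by 0.58 in cPLA_2_ WT DCs (limma, adjusted p = 3.12e-13 and 6.05e-09). All 12 targets of NRF2, the transcription factor of the oxidative stress response, rose in both genotypes, with medians of 2.54 in cPLA_2_ KO and 2.63 in cPLA_2_ WT DCs. Among them was *G6pdx*, which rose by 0.57 in cPLA_2_ KO and by 0.28 in cPLA_2_ WT DCs (limma, adjusted p = 6.43e-09 and 5.54e-05), the latter 0.06 after scaling to equal library totals.

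Of 16 genes of cholesterol synthesis tested, 12 rose and 2 fell in cPLA_2_ KO DCs (median 0.43), whereas 5 rose and 9 fell in cPLA_2_ WT DCs (median -0.17). After scaling to equal library totals, 1 rose in cPLA_2_ WT DCs. *Lss*, which encodes lanosterol synthase, rose by 0.54 in cPLA_2_ KO and fell by 0.48 in cPLA_2_ WT DCs (limma, adjusted p = 5.37e-07 and 1.43e-06). Of 19 genes of lipid handling under PPARG and LXR, 8 rose and 4 fell in cPLA_2_ KO DCs (median 0.13), and 7 rose and 8 fell in cPLA_2_ WT DCs (median -0.15). *Plin2*, which coats lipid droplets, rose by 1.34 in cPLA_2_ KO and by 1.06 in cPLA_2_ WT DCs (limma, adjusted p = 7.38e-17 and 6.12e-16). Of 16 genes of the extracellular matrix and adhesion, 10 rose and 4 fell in cPLA_2_ KO DCs (median 0.31), and 8 rose and 4 fell in cPLA_2_ WT DCs (median 0.50). The integrin gene *Itga4* fell by 0.93 in cPLA_2_ KO and rose by 0.60 in cPLA_2_ WT DCs (limma, adjusted p = 2.85e-10 and 1.19e-07). Of the 8 other long noncoding RNAs tested, 3 rose and 2 fell in cPLA_2_ KO DCs and 4 rose in cPLA_2_ WT DCs. With edgeR 0 of them were called higher in cPLA_2_ KO DCs, and after scaling to equal library totals 2 rose and 2 fell in cPLA_2_ WT DCs. For comparison, the interferon response list of 20 genes had 1 higher and 17 lower genes in cPLA_2_ KO DCs (median -1.11) and 20 higher genes in cPLA_2_ WT DCs (median 2.28). The list of 20 NF-kB targets had 15 higher genes in cPLA_2_ KO (median 0.48) and 20 in cPLA_2_ WT DCs (median 2.47), and 1 fell in cPLA_2_ KO DCs after scaling to equal library totals.

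Markers of cell types were summed in each library. All 10 DC markers had reads, with *Cd74* the most abundant. Their summed level was 501246, 475756 and 480526 normalized counts in nonconfined cPLA_2_ WT, 606137, 568867 and 597360 in nonconfined cPLA_2_ KO, 449283, 418558 and 429396 in confined cPLA_2_ WT and 421729, 406818 and 422026 in confined cPLA_2_ KO libraries. Of the 10 DC markers, 10 fell in cPLA_2_ KO and 8 in cPLA_2_ WT DCs (limma). All 10 macrophage markers had reads, and *Cd14* was the most abundant in total over all libraries. *Cd68* had a higher mean than *Cd14* in both nonconfined groups and in confined cPLA_2_ KO cells. The macrophage markers summed to 33774, 32586 and 33463 in nonconfined cPLA_2_ WT and 39512, 40756 and 39966 in nonconfined cPLA_2_ KO libraries. In confined libraries they summed to 167538, 159348 and 160214 in cPLA_2_ WT and 53615, 50009 and 53396 in cPLA_2_ KO cells. The confined cPLA_2_ WT sums were the highest through *Cd14*, with 1899 ± 77.7 counts in nonconfined and 131510 ± 3988 in confined cPLA_2_ WT DCs (SD, n = 3), compared with 1983 ± 123 and 16429 ± 307 in cPLA_2_ KO DCs (SD, n = 3). Of the 10 macrophage markers, 2 rose and 6 fell in cPLA_2_ KO (median -0.61), and 2 rose and 5 fell in cPLA_2_ WT DCs (median -0.35, limma). Of 8 eosinophil markers 6 had an entry, with *Prg2* the most abundant, and their sums were 28767, 28494 and 28384 in nonconfined cPLA_2_ WT, 68743, 64434 and 66250 in nonconfined cPLA_2_ KO, 7529, 7038 and 6980 in confined cPLA_2_ WT and 16635, 16122 and 17083 in confined cPLA_2_ KO libraries. These sums, made up mostly of *Prg2* and *Epx*, were higher in cPLA_2_ KO than in cPLA_2_ WT cells in both treatments and lower after confinement. The eosinophil marker *Siglecf* was instead lower in cPLA_2_ KO cells, with 943 ± 42.8 compared with 1402 ± 49.2 counts in cPLA_2_ WT cells among nonconfined (SD, n = 3) and 1103 ± 72.6 compared with 1448 ± 115 among confined libraries (SD, n = 3). With confinement its change was 0.23 (log2, limma, SE 0.101, adjusted p = 0.0733) in cPLA_2_ KO and 0.04 (log2, limma, SE 0.101, adjusted p = 0.741) in cPLA_2_ WT DCs, and the latter was -0.18 after scaling to equal library totals. The 10 late neutrophil markers, led by *S100a9*, summed to 269555, 274712 and 273146 in nonconfined cPLA_2_ WT, 417896, 378470 and 404414 in nonconfined cPLA_2_ KO, 205759, 196214 and 194478 in confined cPLA_2_ WT and 381754, 389907 and 376368 in confined cPLA_2_ KO libraries, where confined and nonconfined cPLA_2_ KO libraries overlapped. Of the 8 markers of neutrophil progenitors, *Cebpe* was the most abundant in total over all libraries, whereas *Mpo* had the higher mean in both nonconfined groups. These markers summed to 9525, 9192 and 9083 in nonconfined cPLA_2_ WT and 10295, 9530 and 10102 in nonconfined cPLA_2_ KO libraries. In confined libraries they summed to 2717, 2482 and 2528 in cPLA_2_ WT and 6142, 5713 and 5973 in cPLA_2_ KO cells. Both kinds of neutrophil sums were higher in confined cPLA_2_ KO than in confined cPLA_2_ WT libraries, whereas the late neutrophil marker *Lcn2* was lower, at 21557 ± 693 compared with 32117 ± 1042 counts (SD, n = 3). Of the 10 mast cell and basophil markers, *Cpa3* was the most abundant in total over all libraries, whereas *Prss34* had the higher mean in confined cPLA_2_ KO cells. Their sums were 9891, 9936 and 10022 in nonconfined cPLA_2_ WT and 14873, 14312 and 14400 in nonconfined cPLA_2_ KO libraries. In confined libraries the sums were 4427, 4303 and 4469 in cPLA_2_ WT and 7629, 7377 and 7683 in cPLA_2_ KO cells. Of 8 erythroid and megakaryocyte markers 7 had an entry, *Car1* was listed at 0 and *Ppbp* was the most abundant in total. Unlike most of these sums, theirs was higher after confinement in both genotypes, at 1314, 1268 and 1226 in nonconfined and 5807, 5462 and 5639 in confined cPLA_2_ WT libraries, and at 1808, 1695 and 1779 and 6897, 6690 and 7094 in the cPLA_2_ KO libraries. This came mostly from *Ppbp*, with means of 106 and 4223 counts in nonconfined and confined cPLA_2_ WT and 167 and 5631 in cPLA_2_ KO DCs. *Itga2b* fell by 1.32 in cPLA_2_ KO and by 0.63 in cPLA_2_ WT DCs (limma, adjusted p = 2.47e-11 and 9.44e-07). Of the 4 markers tested, 2 rose and 1 fell in cPLA_2_ KO (median -0.08), and 2 rose and 2 fell in cPLA_2_ WT DCs (median 0.35, limma). The 4 plasmacytoid DC markers, led by *Tcf4*, were at 348, 342 and 297 in nonconfined and 805, 818 and 814 in confined cPLA_2_ WT libraries, and at 268, 285 and 289 and 292, 276 and 303 in the cPLA_2_ KO libraries. The higher confined cPLA_2_ WT sums came from *Tcf4*, with 308 ± 29.7 counts in nonconfined and 799 ± 6.37 in confined cPLA_2_ WT DCs (SD, n = 3). Of the 4 markers, *Tcf4* alone rose and 0 fell in cPLA_2_ WT DCs (median -0.38, limma). In cPLA_2_ KO DCs 0 rose and *Siglech* alone fell (median -0.38, limma). The sums of B cell, T and NK cell and stromal markers were at most 307 in these libraries. In these bulk libraries fewer cells of a type and less RNA per cell cannot be told apart, and the part of cell composition in the values of the 36 genes was not tested.

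In position and structure the 36 genes were spread. They lay on 18 chromosomes with at most 3 on each. Of the 35 entries matched to GENCODE on GRCm39, 31 are protein coding and 2 are long noncoding RNAs. Their median span was 37120 bases, compared with 22194.5 over the genes considered, and the median length of their exons was 5832 compared with 6232.5 bases. RefSeq promoters of 300 bases, 250 before to 50 after the start, were found for 28 of the 36 entries as 38 sequences. Their median GC content was 55.5%, compared with 52.7% over all 32851 promoters, which include those of genes not considered here. The median number of CG pairs was 11, compared with 7. Both strands were searched for motifs. The E-box CACGTG was in 5 of the 38 promoters of the chosen genes (13.2%) and in 7.15% of all promoters. The shorter ACGTG, which is part of it, was in 31.6% and 19.6%. TTNNGNAA, which C/EBP factors can bind, was in 39.5% and 40.7%, and the AP-1 motif TGACTCA was in 7.89% and 5.2%. The letters TTTCGCGC, an E2F motif, were in the promoters of *Coro6* and *Lrrc1*, 5.26% compared with 0.323%. The ETS motifs TTCCTCTT and AGGAAGT were in 7.89% each, compared with 3.56% and 9.35% of all promoters. TGTTTAC was in 2.63% and 3.65%, and GAANNTTC in 5.26% and 7.86%. TGATGCAA, TGACGTCA and the NF-kB motif were in 0% of the promoters of the chosen genes and in 0.895%, 1.79% and 0.155% of all promoters. These shares describe letters in the sequences and were not tested. The promoters of the 3 chosen genes that lead the order of levels per length in confined cPLA_2_ KO DCs, which leaves out entries with a pair of symbols or no matched length, are given 5′ to 3′ from RefSeq on GRCm38.p6, with matches to the motifs in capitals.
Lonrf3, chrX:36328159-36328458 on the plus strand: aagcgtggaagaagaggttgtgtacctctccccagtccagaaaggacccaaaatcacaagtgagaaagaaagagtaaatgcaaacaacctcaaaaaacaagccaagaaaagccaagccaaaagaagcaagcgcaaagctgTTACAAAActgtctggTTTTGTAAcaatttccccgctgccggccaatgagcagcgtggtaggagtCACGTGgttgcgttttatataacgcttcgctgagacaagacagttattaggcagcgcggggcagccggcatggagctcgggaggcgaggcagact
Slc36a1, chr11:55204090-55204389 on the plus strand: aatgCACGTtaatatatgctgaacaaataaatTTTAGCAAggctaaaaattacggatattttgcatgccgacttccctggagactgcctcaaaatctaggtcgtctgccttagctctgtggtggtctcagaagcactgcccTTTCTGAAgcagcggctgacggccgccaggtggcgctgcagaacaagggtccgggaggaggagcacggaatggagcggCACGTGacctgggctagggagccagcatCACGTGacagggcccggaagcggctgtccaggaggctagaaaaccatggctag
Syne3, chr12:104998628-104998927 on the minus strand: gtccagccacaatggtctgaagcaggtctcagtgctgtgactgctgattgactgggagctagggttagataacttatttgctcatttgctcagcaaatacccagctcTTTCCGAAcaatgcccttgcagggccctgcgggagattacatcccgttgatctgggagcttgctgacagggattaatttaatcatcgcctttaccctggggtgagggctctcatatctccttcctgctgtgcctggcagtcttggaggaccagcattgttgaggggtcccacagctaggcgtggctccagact
The promoters of *Lonrf3* and *Slc36a1* each hold CACGTG, the latter at more than a single place, and in that of *Syne3* the capitals mark TTNNGNAA.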

How the data were processed

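The deposited signal values are gene-level counts that the authors divided by DESeq2 size factors, after mapping with STAR 2.7.5a to GRCm39 (mm39) and counting with featureCounts 1.5.0, in R 3.5.3 per the processing notes. The kits select polyadenylated RNA and keep the strand, and the labels name more than a single kit without saying which library had which. The strand used in counting is not given in the sources used here. The protocol text mentions LPS for all samples, and the titles and treatment entries were followed instead. Multiplying by a factor per library gave whole numbers for 100% of values, within 0.001, and these reads went into edgeR 4.0.16 and DESeq2 1.42.0 as alternatives.

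Values were used as log2(normalized count + 1). Genes with 10 or more normalized counts in 3 libraries or more were tested with limma 3.58.1 in R 4.3.3, with a trend, a mean for each condition and Benjamini-Hochberg adjusted p-values, called under 0.05. In the confinement comparisons edgeR called 4018 genes higher and 4330 lower in cPLA_2_ KO DCs, and 5283 and 4819 in cPLA_2_ WT DCs. DESeq2 called 4197 and 4350, and 5219 and 5048. Scaling to equal library totals moved the median change of the 12036 genes considered to -0.07 in cPLA_2_ KO and -0.27 in cPLA_2_ WT DCs, and TMM scaling moved it to -0.08 and -0.09. Tables were handled with pandas 2.3.3 and figures drawn with matplotlib 3.10.9.

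The chosen genes and the gene lists were picked with earlier results of these data known. By rule, the genes named were the 12 with the largest difference in cPLA_2_ KO DCs and the 6 with the most negative difference in cPLA_2_ WT DCs, each with a confined cPLA_2_ KO mean of at least 100 and no overlap with nonconfined cPLA_2_ KO libraries. The 6 with the highest confined cPLA_2_ KO level per kb among entries with a single symbol and a matched length, a limit set after the values were seen, those on a gene list and up to 4 per direction called between the LPS groups were added. A pair of the chosen genes is not reported here by name but is counted in the totals. All other genes named, among them *Tns1*, *Coro6*, *Mlph* and the relatives, and the gene lists described in detail, were picked after their values were seen. Gene positions and exon lengths are those of GENCODE on GRCm39.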

Additional observations from a re-analysis of the deposited data

Results flagged for a closer look

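In *Coro6* and *Lpin1* every confined cPLA_2_ KO library was above every nonconfined cPLA_2_ KO library, whereas every confined cPLA_2_ WT library was below every nonconfined cPLA_2_ WT library. The log2 difference between confined and nonconfined cells in cPLA_2_ KO DCs minus that in cPLA_2_ WT DCs was 1.63 for *Coro6* and 1.12 for *Lpin1*. The genes were chosen by these same values, and the difference between the genotypes was not tested.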

How the results depend on the processing

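The rule chose 36 genes as described, 37 with a pseudocount of 0.5 (36 shared), 33 with a pseudocount of 5 (33 shared), 54 after scaling to equal library totals (32 shared) and 35 with TMM scaling (32 shared). With a minimum level of 100 it chose 25 genes, and with the level required in the nonconfined or confined conditions 35. A stricter minimum of 1 in cPLA_2_ KO DCs left 18 genes, and a maximum of 0 in cPLA_2_ WT DCs left 23, since fewer genes pass a stricter threshold. Leaving out single libraries gave 34 to 45 genes, of which 29 to 35 were shared. Leaving out entries listed at 0, an alternative chosen after seeing the data, gave 31 genes. Between the libraries labelled LPS cPLA_2_ KO and LPS cPLA_2_ WT, limma called 0 genes, 1 gene without the filter, and 0 to 3 genes with single LPS libraries left out, and the cause was not tested. With the replicate number as a block it called 0 genes, with 854 at an unadjusted p under 0.05. In no alternative was a chosen gene called. A level of 50 normalized counts rests on about as many reads, and counting error was not measured on its own.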
